A study of Mus musculus with 38 samples.

Results

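The genes described here encode the nuclear-encoded subunits of the mitochondrial respiratory chain and of ATP synthase. They were selected in ATAC-seq peak tables of mouse CD8 T cells, in which the value of a peak measures how often the transposase Tn5 cut accessible chromatin there. A peak was taken as a member when the nearest mm10 protein-coding gene body lay within 10 kb, was on an autosome, and had a symbol starting with Ndufa, Ndufb, Ndufc, Ndufs, Ndufv, Sdh, Uqcr, Cox4, Cox5, Cox6, Cox7, Cox8 or Atp5. Of 73610 peaks in the table of endogenous tumour-infiltrating cells, 151 were members, at 84 of the 97 autosomal genes with these prefixes. Of 169323 peaks in the table of OT-1 and naive cells, 258 were members, at 89 genes. A mean of at least 10 normalized counts over a table's libraries was required for testing, which 149 and 167 members passed. The prefixes also take in assembly factors of complexes I and II (Ndufaf and Sdhaf genes) and isoforms of restricted tissue expression such as Cox6a2 and Cox4i2, which are counted apart below. Ndufa4 is counted with complex I by its name, although its product has since been assigned to complex IV. A peak is called a gene-end peak when it lies within 1000 bp of either end of the gene body. This class holds promoters and also peaks that do not cover the gene's start, such as those at 3′ ends.

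All cells were labelled CD8+ T cells and came from C57BL/6J mice, wild type apart from the T cell receptor transgene of OT-1 cells described below. The tumour was B16-OVA, a melanoma line that expresses ovalbumin, sampled on day 15. Tadys cells (Slamf6-Tim-3-, labelled age-associated dysfunctional) came from mice aged 64 to 68 weeks in 2 libraries. Endogenous Tterm cells (Slamf6-Tim-3+, terminally exhausted) gave 3 libraries from mice aged 64 to 68 weeks and 5 from mice aged 10 to 12 weeks. Endogenous Tprog cells (Slamf6+Tim-3-, progenitor exhausted) gave 3 aged and 4 young libraries. OT-1 cells carry a transgenic T cell receptor for an ovalbumin peptide. They were sorted from the same kind of tumour and gave 6 aged and 7 young Tterm libraries and 2 aged and 2 young Tprog libraries. The labels do not say whether the age of an OT-1 library is that of the cells, of the tumour-bearing host, or of both. Naive cells from spleen gave 2 aged and 2 young libraries. Each library is a pool of 5000 to 50000 sorted cells, so a lower value can come from fewer cells with an open site or from less opening per cell, which cannot be told apart in such pools.

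Reads in peaks ranged between 4635804 and 87558165 per endogenous library and between 6802732 and 27724769 per OT-1 or naive library. The peaks of the CD8 T cell markers Cd8a, Cd8b1, Cd3e and Cd3d summed to between 7777 and 10940.3 normalized counts in the endogenous libraries. Markers of other cells also had peaks in that table, at 6 of 10 myeloid, 6 of 8 B cell, 5 of 5 CD4 and regulatory T cell, 3 of 4 NK cell and 5 of 7 melanocyte and melanoma genes, while Lyz2, Adgre1, Mpeg1 and Csf3r (myeloid), Ms4a1 and Cd79a (B cell), Ncr1 (NK cell) and Tyr and Tyrp1 (melanocyte) had none. In the table of OT-1 and naive cells peaks were absent at Mpeg1 and Ncr1 alone among all these markers. The first aged OT-1 Tprog library stood apart, with 35.1% of its normalized counts in gene-end peaks, where the other 20 libraries of its table had between 38% and 47.2%. Its mean over all peaks was the lowest of the table, at 46.8 normalized counts. The CD8 T cell marker peaks summed to 3722 in it, and to between 5223 and 8088 in the other 20. Peaks of the sort genes Slamf6 and Havcr2 (Tim-3) summed to 1015 in it and 2261 in the second aged OT-1 Tprog library. They summed to 2753 and 2827 in young OT-1 Tprog and to between 1093 and 1386 in naive libraries. What these low sums reflect was not tested. Counts of members that rest on the first aged OT-1 Tprog library are therefore given with and without it, and counts of related genes only with it. The 2 aged OT-1 Tprog libraries are of sequencing batch 6 and the 4 naive libraries are all of batch 3, which no tumour library shares, so batch and group cannot be told apart in comparisons with naive cells.

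The respiratory chain passes electrons through complex I (NADH dehydrogenase, Nduf subunits), complex II (succinate dehydrogenase, Sdha to Sdhd), complex III (the cytochrome bc1 complex, Uqcr subunits) and complex IV (cytochrome c oxidase, Cox subunits). The proton gradient that results drives ATP synthase, or complex V (Atp5 subunits). Promoters of these genes are known for binding sites of NRF1, of the ETS family member GABPA (also called NRF-2) and of YY1, and T cells are known to increase respiratory capacity on activation and to lose mitochondrial fitness in exhaustion. Accessibility of a promoter does not give the level of the transcript or the protein.

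Promoter windows, 250 bases before to 50 after the start in RefSeq on GRCm38.p6 (mm10), were matched for 79 of the 97 genes. The NRF1 motif GCGCANGCG, searched on both strands, was in 24 of them (30.4%), where 9.63% of all 17492 genes in the table had it. It was in 14% of the 11996 open windows, those with the start in a tested peak of the endogenous table. The ETS motif CCGGAAG was in 22 (27.8%; 12.9% of all genes and 18.7% of open windows). The YY1 motif AANATGGCG was in 11 (13.9%; 3.64% and 5.13%). Among the 76 member genes with an open window, the NRF1, ETS and YY1 motifs were in 31.6%, 28.9% and 14.5%. The SP motif GGGCGGG was in 38% of member windows and 36.9% of all genes. Among open windows it was in 38.2% of those of members and 50.2% of all. In windows of members and of all genes, the E-box CACGTG was in 7.59% and 8.91%, the CREB motif TGACGTCA in 5.06% and 2.54%, and the estrogen-related receptor motif TNAAGGTCA in 3.8% and 1.19%. A match describes the letters of the window and is not evidence of binding.

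The windows below, from RefSeq on GRCm38.p6 and written 5′ to 3′ along the gene's strand, show the 3 motifs at genes that the results turn on. Capitals mark matches to the NRF1, ETS or YY1 motif on either strand. Sdha, the flavoprotein subunit of complex II, has 3 NRF1 matches. Cox6a1, a complex IV subunit, has 3 NRF1 matches, of which 2 overlap, and an ETS match. Sdhb, the iron-sulfur subunit of complex II, and Cox8a, the smallest complex IV subunit, have ETS matches. Atp5b, the catalytic beta subunit of ATP synthase, has a YY1 match. Atp5g1, a gene for the membrane-embedded c subunit, had the highest level per kb of all members and holds none of the 3 motifs.
Sdha (chr13:74350191-74350490, minus strand): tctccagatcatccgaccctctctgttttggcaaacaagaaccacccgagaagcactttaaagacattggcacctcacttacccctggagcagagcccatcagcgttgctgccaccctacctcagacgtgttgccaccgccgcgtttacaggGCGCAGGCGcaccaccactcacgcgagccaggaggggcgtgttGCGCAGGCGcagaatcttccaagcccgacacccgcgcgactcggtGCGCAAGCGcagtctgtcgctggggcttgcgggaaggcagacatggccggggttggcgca
Cox6a1 (chr5:115348909-115349208, minus strand): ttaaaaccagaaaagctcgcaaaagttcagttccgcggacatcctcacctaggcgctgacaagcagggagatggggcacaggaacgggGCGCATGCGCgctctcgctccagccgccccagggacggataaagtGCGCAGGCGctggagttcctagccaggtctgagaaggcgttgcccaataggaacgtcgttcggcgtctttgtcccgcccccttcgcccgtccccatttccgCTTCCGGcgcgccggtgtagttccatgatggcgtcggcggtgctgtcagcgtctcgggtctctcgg
Sdhb (chr4:140961021-140961320, plus strand): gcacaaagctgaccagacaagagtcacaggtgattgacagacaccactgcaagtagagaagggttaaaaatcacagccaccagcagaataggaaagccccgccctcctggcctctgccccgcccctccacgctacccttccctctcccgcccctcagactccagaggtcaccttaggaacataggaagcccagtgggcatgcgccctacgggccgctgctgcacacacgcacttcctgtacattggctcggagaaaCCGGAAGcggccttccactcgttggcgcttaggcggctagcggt
Cox8a (chr19:7217567-7217866, minus strand): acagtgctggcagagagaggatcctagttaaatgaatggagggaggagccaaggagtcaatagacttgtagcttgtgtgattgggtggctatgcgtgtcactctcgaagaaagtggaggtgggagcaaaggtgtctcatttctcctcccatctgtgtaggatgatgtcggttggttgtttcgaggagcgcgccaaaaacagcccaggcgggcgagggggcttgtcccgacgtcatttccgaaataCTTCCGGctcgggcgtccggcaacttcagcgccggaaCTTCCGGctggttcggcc
Atp5b (chr10:128083057-128083356, plus strand): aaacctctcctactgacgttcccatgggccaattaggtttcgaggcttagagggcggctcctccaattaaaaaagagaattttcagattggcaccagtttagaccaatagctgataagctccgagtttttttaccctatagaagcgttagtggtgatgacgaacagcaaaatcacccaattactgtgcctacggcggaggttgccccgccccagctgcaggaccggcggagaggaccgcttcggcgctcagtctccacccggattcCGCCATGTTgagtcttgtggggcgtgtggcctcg
Atp5g1 (chr11:96075582-96075881, minus strand): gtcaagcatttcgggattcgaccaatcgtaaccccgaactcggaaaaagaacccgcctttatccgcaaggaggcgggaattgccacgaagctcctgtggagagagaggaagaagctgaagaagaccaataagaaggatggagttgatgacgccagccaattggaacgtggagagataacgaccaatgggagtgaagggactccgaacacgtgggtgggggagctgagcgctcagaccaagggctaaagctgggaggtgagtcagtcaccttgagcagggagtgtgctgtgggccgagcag

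Gene-end peaks were found in the endogenous table at 75 of the 97 genes, and most of them were among the more open peaks of the table. Among gene-end members of the endogenous table, 73 of 79 (92.4%) exceeded the table's median level of 102 normalized counts per kb of peak, against 79.6% of all gene-end peaks of the table, while 45.8% of the other members did. In the table of OT-1 and naive cells the shares were 86.7% of gene-end members, 84.8% of all gene-end peaks and 49.4% of other members. Set against the median of each group's own mean levels, the share of gene-end members above it lay between 89.9% and 93.7% over the 5 endogenous groups and between 84.7% and 91.8% over the 6 groups of the other table. In the endogenous table, of the 70 gene-end members whose gene has its start in the promoter table, 60 covered that start. There 18 of 79 also covered the start of another gene. In the table of OT-1 and naive cells only 59 of 85 covered the gene's own start, and 17 of 98 covered another gene's start. Gene-end results of that table are therefore not results of promoters alone.

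By complex, the median level per kb of gene-end members was 383 for complex I (31 peaks, 74.3 to 833), 549 for the 2 complex II peaks, 422 for complex III (8 peaks, 37.9 to 939), 399 for complex IV (9 peaks, 127 to 692) and 384 for ATP synthase (17 peaks, 60.2 to 1141). The complexes thus overlapped widely, and the median of all gene-end peaks was 305. The highest levels per kb were at Atp5g1 (1141), Ndufaf8 (997, a complex I assembly factor whose peak also covers Tepsin), Uqcrq (939, a small subunit of complex III), Atp5b (913) and Sdhaf1 (871, an assembly factor of complex II). Among isoforms of restricted expression, the highest peak had 71.5 per kb at Cox4i2 (a lung isoform), 93.7 at Cox6a2 and 103 at Cox8b (heart and skeletal muscle isoforms), 379 at Ndufa4l2, 126 at Cox6b2 (a testis isoform) and 382 at Cox7a1 (also a muscle isoform). Peaks with the NRF1 motif in their gene's window (20) had a median of 365 per kb, and those without it (43) 468.

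Core subunits of every complex were among these genes. For complex I, the level per kb was 606 at Ndufv1, which binds NADH, 541 at Ndufs1, an iron-sulfur subunit of the same arm, 166 at Ndufa9 and 207 at Ndufb8, both accessory subunits. For complex II it was 584 at Sdhb and 514 at Sdha. For complex III it was 402 at Uqcrc1, a core protein, and 468 at Uqcrfs1, the Rieske iron-sulfur protein. For complex IV it was 424 at Cox5b, 412 at Cox6a1 and 399 at Cox7a2l, a supercomplex assembly factor. The peak at the gene end of Cox5a reached 127 and did not cover its start, and Sdhc, Sdhd and Cox4i1 had no gene-end member in this table. For ATP synthase, Atp5b and Atp5g1 are given above. The alpha subunit gene Atp5a1 had 72.2 per kb at its own gene-end peak, and its other end lay under a peak assigned to Haus1 that averaged 730.0 normalized counts. The member of highest mean was the promoter of Ndufa13 (1828 normalized counts), followed by Sdhaf1 (1562) and Atp5g1 (1488), and the lowest were distal or intragenic peaks of Ndufv3 (6.26), Cox7b2 (9.89) and Cox7a2l (10.9). In the table of OT-1 and naive cells Ndufa13 (1262), Atp5g1 (951) and Ndufaf8 (925) had the highest means, and peaks of Sdhc (0.676), Ndufs1 (2.24) and Cox6c (2.26) the lowest.

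Several promoters are shared with a neighbouring gene, so that the rule gave the peak to the neighbour. Among endogenous cells, 13 of the 97 genes had no peak of their own, and 10 of these lay under a peak assigned to an overlapped neighbour. Atp5j, a subunit of the ATP synthase stalk, shares its bidirectional promoter with Gabpa, whose peak averaged 1797 normalized counts. Ndufb1 shares with Cpsf2 (1394), Ndufa11 with Vmac (1459) and Ndufaf3 with Dalrd3 (1279). Uqcrh, Cox4i1, Atp5h, Ndufs6, Sdhd, Atp5a1, Sdhaf2, Ndufa4 and Ndufa4l2 have peaks of their own, but a peak over an end of each was assigned to Lrrc41, Emc8, Kctd2, Mrpl36, Timm8b, Haus1, Cpsf7, Phf14 and Stac3, in this order. These shared peaks are not members, and their values are given only where stated.

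Terminally exhausted and progenitor exhausted cells were compared first in young mice. Of 149 members tested, 19 were higher in young Tterm than in young Tprog cells, where 14.3% of all tested peaks were higher, and 4 were lower, where 11.3% of all were (limma, Benjamini-Hochberg adjusted p under 0.05). Higher members made up 12.8% and lower ones 2.68%. Among the 79 gene-end members 9 were higher and 2 lower (11.4% and 2.53%), and among all gene-end peaks 22.2% and 6.27% were. The median log2 difference was 0.21 over gene-end members and 0.18 over all gene-end peaks. Under equal library totals, which moved the median of all tested peaks to -0.17, 7 members were higher and 4 lower. Leaving out the second young Tprog library left 9 higher and 3 lower, and leaving out the second young Tterm library 12 and 3.

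By complex, the counts stand beside shares of 14.3% higher and 11.3% lower over all tested peaks (median log2 difference -0.01). Over all gene-end peaks the shares were 22.2% and 6.27% (median 0.18), and no class was tested against these shares. In young Tterm cells 7 of 48 tested complex I peaks were higher and none was lower (median log2 difference 0.21). Complex II had 2 of 7 higher, complex III 2 of 14 and neither had a lower one, with medians of 0.17 and 0.19. Complex IV had 5 of 18 higher and 1 lower (median 0.30), and ATP synthase 2 of 28 higher and 1 lower (median 0.23). Assembly factors had 1 of 25 higher and 1 lower (median -0.10), and the isoforms of restricted expression none higher and 1 lower of 9 (median -0.16).

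Promoters that rose did so by little. At the promoter of Uqcrfs1 (chr13:30544523-30545868) the values were 619, 766, 728, 679 and 723 normalized counts in young Tterm libraries, against 699.6, 469, 449.7 and 507 in young Tprog libraries, a log2 difference of 0.42 ± 0.13 (SE, limma adjusted p = 0.0149). The groups overlapped. The promoter of Sdhb (chr4:140960672-140962273), with the ETS match shown above, had 898, 1054, 1092, 1093 and 1016 in young Tterm libraries, against 1030.5, 759, 839 and 739.8 in young Tprog libraries (0.30 ± 0.11 SE, limma adjusted p = 0.0489). One or more libraries of each group overlapped here. Cox6a1 (chr5:115347397-115349569) had 994, 1004, 926, 1064 and 968 in young Tterm libraries, against 900.5, 702, 766 and 854 in young Tprog libraries (0.30 ± 0.10 SE, limma adjusted p = 0.0312). The groups did not overlap there. The other gene-end peaks that rose were those of Uqcrc2, Atp5pb, Ndufb7, Ndufa13, Ndufb5 and Cox8a, with log2 differences between 0.31 and 0.39. Of these, the peaks of Atp5pb, Ndufa13 and Ndufb5 also cover the starts of Wdr77, Tssk6 and Mrpl47. The gene-end calls of this paragraph were not recomputed peak by peak under other scalings or with libraries left out. Equal library totals left 7 higher members where the main fit had 19. The median over all gene-end peaks was itself 0.18.

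Most core subunits did not pass the test. The log2 difference between young Tterm and young Tprog cells was 0.31 ± 0.12 (SE, limma adjusted p = 0.0548) at Ndufs1, 0.20 ± 0.12 (limma adjusted p = 0.229) at Ndufv1, 0.25 ± 0.12 (limma adjusted p = 0.14) at Sdha and 0.09 ± 0.12 (limma adjusted p = 0.614) at Uqcrc1. It was 0.34 ± 0.14 (limma adjusted p = 0.0758) at Cox7a2l, 0.30 ± 0.13 (limma adjusted p = 0.0804) at Atp5b, 0.11 ± 0.13 (limma adjusted p = 0.587) at Atp5g1 and -0.02 ± 0.14 (limma adjusted p = 0.924) at Ndufb8. The shared promoter peaks assigned to Gabpa (with Atp5j), Emc8 (with Cox4i1), Mrpl36 (with Ndufs6) and Cpsf2 (with Ndufb1) were higher in young Tterm cells by 0.40, 0.43, 0.50 and 0.56 on the log2 scale, with limma adjusted p of 0.00254, 0.0191, 0.000829 and 0.000458. The gene-end peak of Cox6b2, the testis isoform, was lower in young Tterm cells (log2 difference -0.50 ± 0.17 SE, limma adjusted p = 0.024), a call that was lost without young Tterm 2 or 3 or young Tprog 3 or 4 (adjusted p up to 0.0936).

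**Figure D1:**
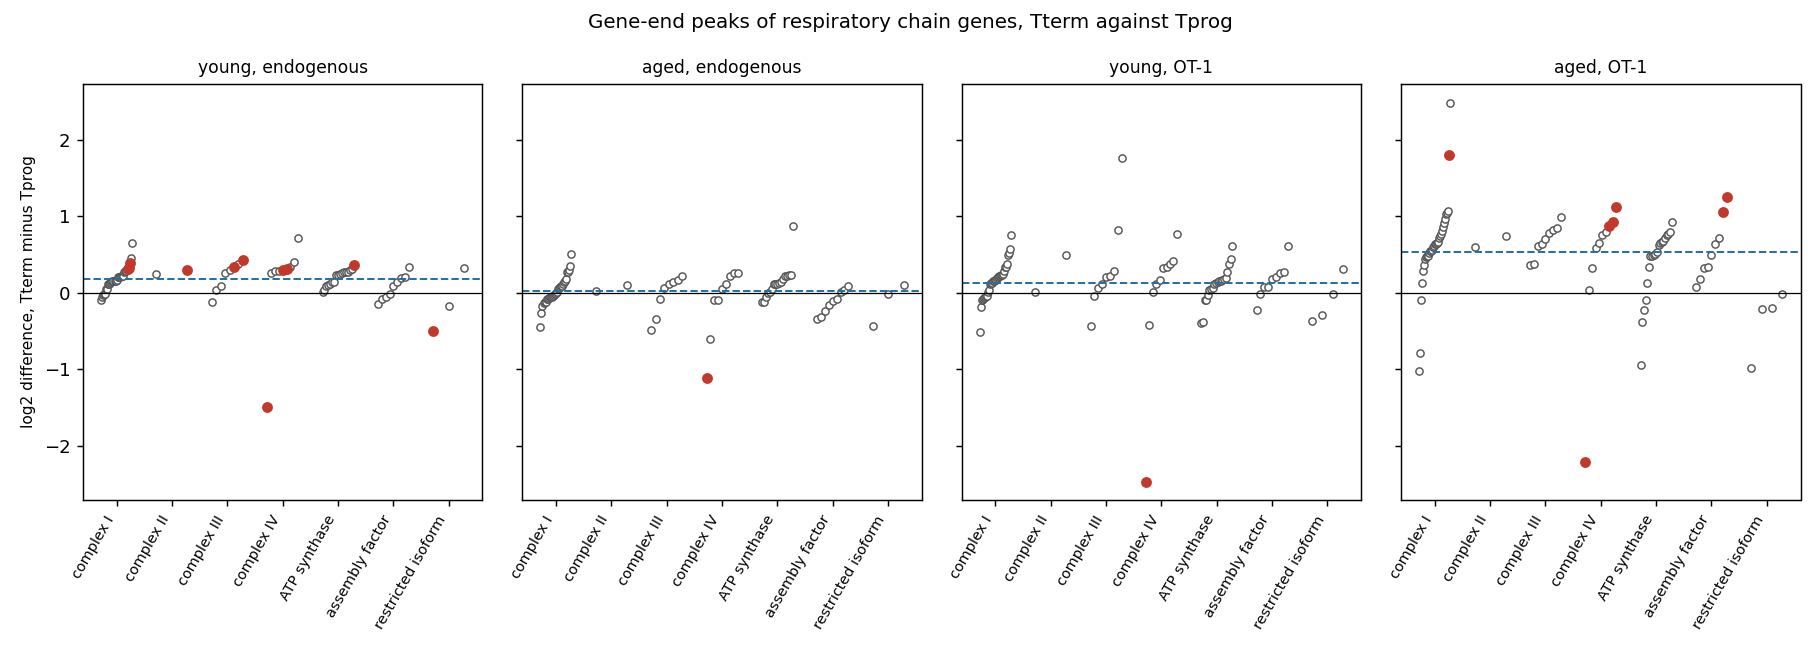
Log2 difference between Tterm and Tprog cells (y axis) for each gene-end member, grouped by complex (x axis), in 4 panels for young and aged endogenous and young and aged OT-1 cells; filled points have a limma adjusted p under 0.05 and the dashed line is the median of all gene-end peaks. The points lie around the dashed line, at 0.18 in young endogenous and 0.54 in aged OT-1 cells, and the lowest point in young endogenous cells is the 3′ element of Cox7a2.

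The larger differences lay away from promoters, and 4 such elements, among the 6 members of lowest adjusted p in their direction in young endogenous cells, are described first. Of members, 133 overlapped exactly 1 tested peak of the other table one to one, so that the Tterm against Tprog difference could be read in 4 sets of libraries that share none: young and aged endogenous and young and aged OT-1 cells. Higher calls in all 4 sets were found at 2 of the 133 (1.5%) and lower calls in all 4 at 1 (0.752%), where 2.26% and 1.48% of 60411 matched peaks had them. No member was called in opposite directions in 2 sets, as 0.122% of all matched peaks were.

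An intragenic peak of Ndufa10 (chr1:92468536-92469540), an accessory subunit of complex I, was higher in Tterm cells in all 4 sets. It had 257, 417, 318, 293 and 366 normalized counts in young Tterm libraries, against 179.6, 131, 154 and 123 in young Tprog libraries, and 314, 277 and 398 in aged Tterm libraries, against 127, 175 and 217 in aged Tprog libraries. The groups did not overlap at either age. The log2 differences were 1.16 ± 0.18 (SE, limma adjusted p = 2.23e-05) in young and 0.94 ± 0.22 (SE, limma adjusted p = 0.00448) in aged mice. In OT-1 cells they were 1.04 ± 0.22 (SE, limma adjusted p = 0.00271) in young and 1.21 ± 0.26 (SE, limma adjusted p = 0.00264) in aged cells. The young OT-1 call was lost without the second young OT-1 Tprog library (adjusted p = 0.126). Under library scaling by the median of gene-end peaks the aged OT-1 call was lost (log2 difference 0.68, limma adjusted p = 0.0663). It was also lost with array weights (limma adjusted p = 0.128) and with the compared groups alone (limma adjusted p = 0.31).

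An intragenic peak of Cox5a (chr9:57523654-57524869), a nuclear-encoded subunit of complex IV, passed the test in 3 of the 4 sets. In young endogenous cells it had 266, 466, 284, 415 and 427 in Tterm libraries, against 201, 158, 200.3 and 242 in Tprog libraries. In aged endogenous cells it had 361, 339 and 362 in Tterm libraries, against 349.7, 206 and 259 in Tprog libraries. The groups did not overlap in young mice and overlapped in aged mice, and the log2 differences were 0.87 ± 0.18 (SE, limma adjusted p = 0.000644) and 0.41 ± 0.22 (SE, limma adjusted p = 0.26). In OT-1 cells the matching peak had a lowest of 202, a median of 252 and a highest of 339 in young Tterm libraries, against 92.6 and 48.3 in young Tprog libraries, and a lowest of 248, a median of 311 and a highest of 366 in aged Tterm libraries, against 83.8 and 152 in aged Tprog libraries. The differences there were 1.86 ± 0.26 (SE, limma adjusted p = 3.44e-05) and 1.60 ± 0.31 (SE, limma adjusted p = 0.000915). The aged OT-1 call was lost with array weights, the replicate block and the compared groups alone (limma adjusted p = 0.0759, 0.0518 and 0.261). The peak over the start of Cox5a (chr9:57520866-57522463) was higher in young Tterm cells by 0.45 ± 0.12 (SE, limma adjusted p = 0.00613).

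The opposite pattern was seen at Cox7a2, which encodes the ubiquitous isoform of complex IV subunit 7a. A peak 626 bp from the 3′ end of the gene (chr9:79755867-79756406) had 90, 107, 110.2, 81.1 and 91.9 in young Tterm libraries, against 329, 160.0, 331 and 303 in young Tprog libraries. In aged mice it had 88.7, 91.8 and 71.2 in Tterm libraries, against 80.7, 340.0 and 218 in Tprog libraries. The groups did not overlap in young mice. In aged mice the groups overlapped. The log2 differences were -1.49 ± 0.28 (SE, limma adjusted p = 0.00021) in young and -1.12 ± 0.34 (SE, limma adjusted p = 0.0297) in aged mice, and the aged call was lost without any 1 of the 3 aged Tterm libraries and without aged Tprog 2 or 3. In OT-1 cells the matching peak had a lowest of 28.9, a median of 52.2 and a highest of 58 in young Tterm libraries, against 255 and 302 in young Tprog libraries, and a lowest of 18.6, a median of 34.4 and a highest of 54.6 in aged Tterm libraries, against 86.1 and 172 in aged Tprog libraries. The differences were -2.47 ± 0.36 (SE, limma adjusted p = 6.82e-05) and -2.20 ± 0.43 (SE, limma adjusted p = 0.00115). The aged OT-1 call was lost with array weights and with the compared groups alone (limma adjusted p = 0.0661 and 0.257). The naive libraries had 84 and 72.6 in aged and 25.1 and 32.1 in young cells. The peak over the start of the same gene (chr9:79759298-79760463) moved the other way in young endogenous cells, higher in Tterm than in Tprog by 0.53 ± 0.14 (SE, limma adjusted p = 0.00548).

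An element inside Ndufs4 (chr13:114304307-114305637), an accessory subunit of complex I, had a mean of 688 normalized counts. It had 923, 1119, 1067, 702 and 645 in young Tterm libraries, against 459, 531, 423 and 304 in young Tprog libraries (1.05 ± 0.18 SE, limma adjusted p = 5.79e-05), and the groups did not overlap. In aged mice it had 851, 672 and 1002 in Tterm libraries, against 703, 588 and 922 in Tprog libraries (0.20 ± 0.22 SE, limma adjusted p = 0.654), and the groups overlapped. Between OT-1 subsets the log2 difference was 0.73 ± 0.36 (SE, limma adjusted p = 0.263) in young and 2.21 ± 0.43 (SE, limma adjusted p = 0.00114) in aged cells. The aged Tprog libraries were far apart there, at 81.5 and 372. The aged OT-1 call was lost without the first aged OT-1 Tprog library (adjusted p = 0.0542). A distal peak of Atp5a1, the alpha subunit of ATP synthase, was lower in Tterm cells by log2 differences of -0.84 ± 0.28 (SE, limma adjusted p = 0.0277) in young and -1.30 ± 0.34 (SE, limma adjusted p = 0.0109) in aged endogenous cells and -1.44 ± 0.38 (SE, limma adjusted p = 0.0182) in young OT-1 cells, with -0.89 ± 0.46 (SE, limma adjusted p = 0.179) in aged OT-1 cells. The young endogenous call was lost without young Tprog 1, 2 or 3 or young Tterm 4 (adjusted p up to 0.117), the aged endogenous call without aged Tterm 3 (adjusted p = 0.0791), and the young OT-1 call without either Tprog library (adjusted p up to 0.244). A distal peak of Atp5g3, another c subunit gene, was higher in Tterm cells by 1.19 ± 0.45 (SE, limma adjusted p = 0.0495) in young and 1.77 ± 0.54 (SE, limma adjusted p = 0.0301) in aged endogenous cells, at a mean of 43 normalized counts. In young endogenous cells the remaining named members were Sdhaf2 (0.80 ± 0.17) and Ndufa12 (0.89 ± 0.22), which were higher in Tterm cells at a distal and an intragenic peak, and Ndufaf6 (-1.07 ± 0.30), an assembly factor of complex I, which was lower at an intragenic peak (log2 difference ± SE).

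**Figure D2:**
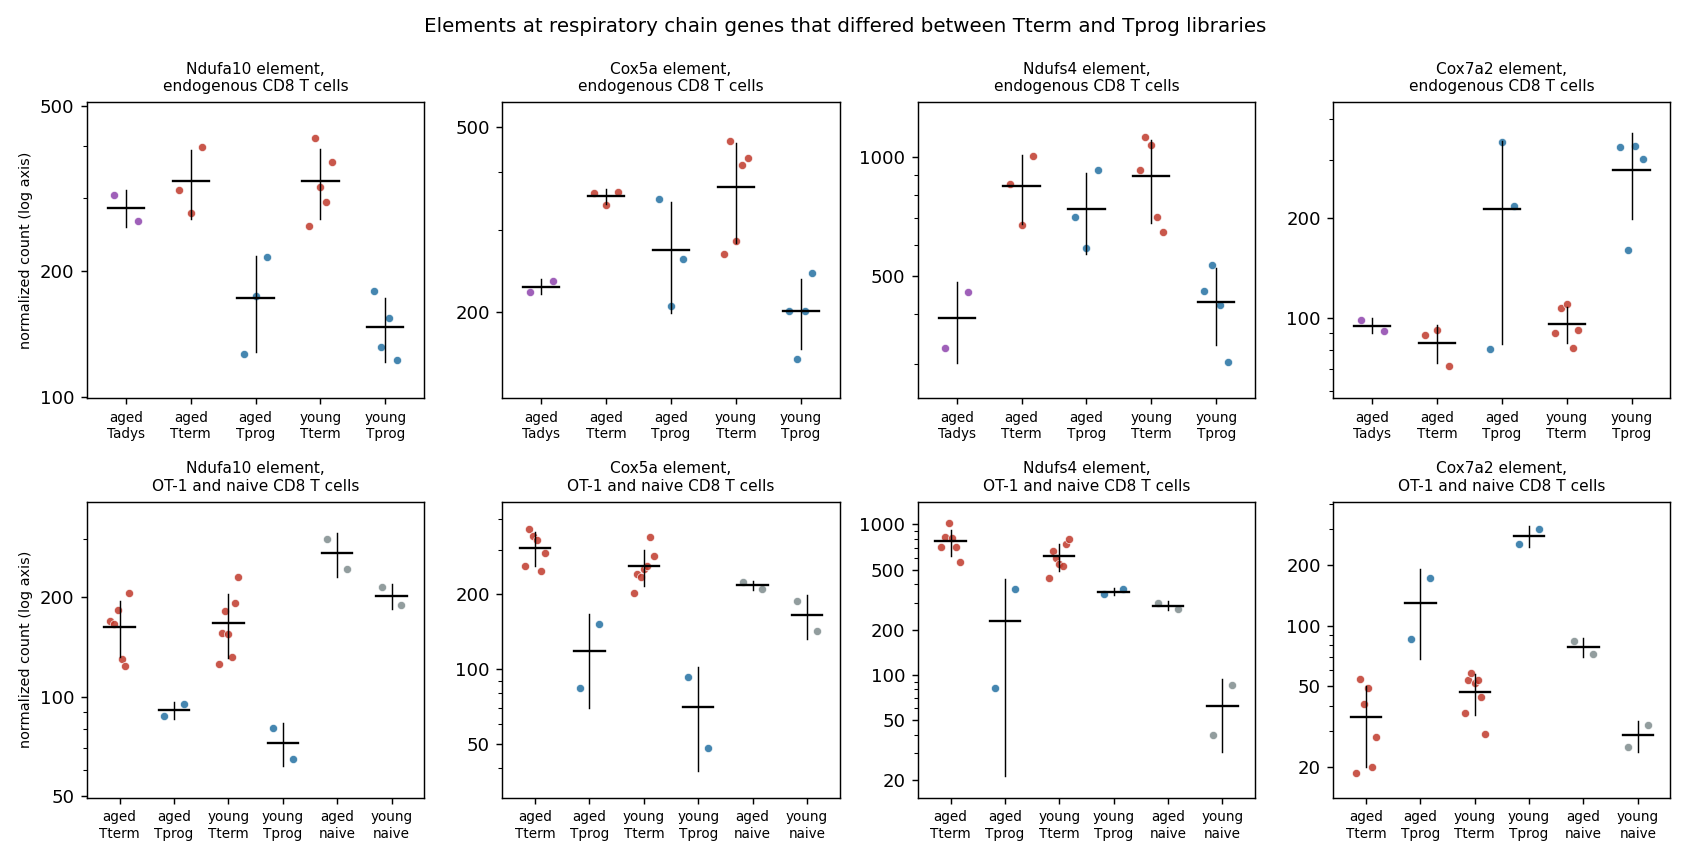
Normalized counts (y axis, log scale) of the non-promoter elements of Ndufa10, Cox5a, Ndufs4 and Cox7a2 in every library, with endogenous groups in the upper row and OT-1 and naive groups in the lower row; points are libraries, horizontal lines means and vertical lines SD. The Ndufa10 element is higher in every Tterm library than in any Tprog library of the same age and source, and the Cox7a2 element is lower in every OT-1 Tterm library than in any OT-1 Tprog library of the same age.

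In aged endogenous cells fewer differences passed the test. Of 149 members 4 were higher in aged Tterm than in aged Tprog cells, where 6.75% of all tested peaks were, and 2 were lower, where 5.37% were. Of the 79 gene-end members none was higher, and the 1 lower was the 3′ element of Cox7a2. The median log2 difference was 0.03 over gene-end members and 0.03 over all gene-end peaks. The higher peaks included the Ndufa10 element, the distal Atp5g3 peak and an intragenic peak of Cox7a2l at a mean of 10.9 normalized counts (2.35 ± 0.78 SE, limma adjusted p = 0.0472). Without the third aged Tterm library 2 calls were made and without the second 3, against 6 with all libraries. Equal library totals gave 3 higher and 3 lower. The Atp5g3 call was lost without aged Tprog 1 (log2 difference 0.99, adjusted p = 0.221) and without aged Tterm 2 or 3. The Cox7a2l call was lost when any library of the comparison other than aged Tprog 3 was left out (adjusted p up to 0.173).

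Between OT-1 subsets, 3 of 167 members were higher in young Tterm than in young Tprog cells, where 4.06% of all tested peaks were, and 2 were lower, where 3.57% were. Among them are the elements of Ndufa10, Cox5a, Cox7a2 and Atp5a1 described above, and 3 of the calls were made without the second young OT-1 Tprog library. In aged OT-1 cells 16 were higher in Tterm than in Tprog, where 11.3% of all were, and 1 was lower, where 3.39% were. The median of gene-end members was 0.61 there, and that of all gene-end peaks 0.54. This comparison rests on 2 aged Tprog libraries. Without the first, which stood apart, 6 members were higher and 2 lower, and without the second 79 and 2. With library scaling by the median of gene-end peaks, which moved the median of all tested peaks to -0.36, 5 were higher and 3 lower. Equal library totals gave 8 higher and 2 lower. Leaving out the second or the third aged OT-1 Tterm library left 10 calls each. Both aged Tprog libraries are of batch 6, as is 1 of the 6 aged Tterm libraries, and the fit has a batch term. The batch 6 libraries entered the fit that made these calls, so their values are a description and no separate check. Within batch 6 the Ndufa10 element had 206 in the aged Tterm library, against 87.3 and 94.8 in the aged Tprog libraries, and a peak outside Sdhb, the closest of the called peaks in ratio, had 139 in the aged Tterm library, against 73.3 and 137 in the aged Tprog libraries. For young OT-1 cells, whose Tprog libraries are of batches 4 and 5, those batches alone gave 5 higher and 2 lower members.

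Beside the recurrent elements, the aged OT-1 calls included a peak near the end of Ndufa4 opposite its start (chr6:11900983-11902105). It had a lowest of 31.8, a median of 32.8 and a highest of 68.6 in aged Tterm libraries, against 24.4 and 14.6 in aged Tprog libraries (1.80 ± 0.35 SE, limma adjusted p = 0.00109). The highest value was that of the batch 6 Tterm library. The Ndufa4 call was lost without the batch term (log2 difference 0.97, limma adjusted p = 0.0848) and with the replicate block (limma adjusted p = 0.151). It was also lost with array weights (limma adjusted p = 0.183) and with the compared groups alone (limma adjusted p = 0.205). The promoters of Sdhaf4, an assembly factor of complex II, and Cox7c, a small complex IV subunit, were higher by 1.26 ± 0.31 (SE, limma adjusted p = 0.00762) and 1.12 ± 0.28 (SE, limma adjusted p = 0.00763). At Cox7c the values were a lowest of 233, a median of 349.5 and a highest of 428 in aged Tterm libraries, against 204 and 221 in aged Tprog libraries. At both, every aged Tterm library lay above the Tprog libraries. The Sdhaf4 call was lost without aged Tprog 1, the library that stood apart (log2 difference 0.96, adjusted p = 0.097), without aged Tterm 6 (adjusted p = 0.056), under the gene-end scaling (adjusted p = 0.0553) and without the batch term (log2 difference 0.68, adjusted p = 0.148).

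The mean over gene-end members was 588 ± 40.6 normalized counts in Tadys, 622 ± 43.8 in aged Tterm, 612 ± 11.4 in aged Tprog, 667 ± 31.9 in young Tterm and 586 ± 41.5 in young Tprog libraries (SD over libraries). The mean over the other members was 141 ± 10.4 in Tadys, 160.3 ± 2.53 in aged Tterm, 147 ± 3.42 in aged Tprog, 169 ± 10.3 in young Tterm and 140.4 ± 4.71 in young Tprog libraries. In the other table gene-end members averaged 291 ± 32.3 in aged OT-1 Tterm, 231 ± 85.4 in aged OT-1 Tprog, 319.6 ± 52.2 in young OT-1 Tterm, 271 ± 11.7 in young OT-1 Tprog, 327 ± 11.8 in aged naive and 285 ± 3.3 in young naive libraries. Their ratio to the mean of all gene-end peaks lay between 1.01 and 1.22 in every library, and was highest in young naive cells (1.2 ± 0.0339).

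**Figure D3:**
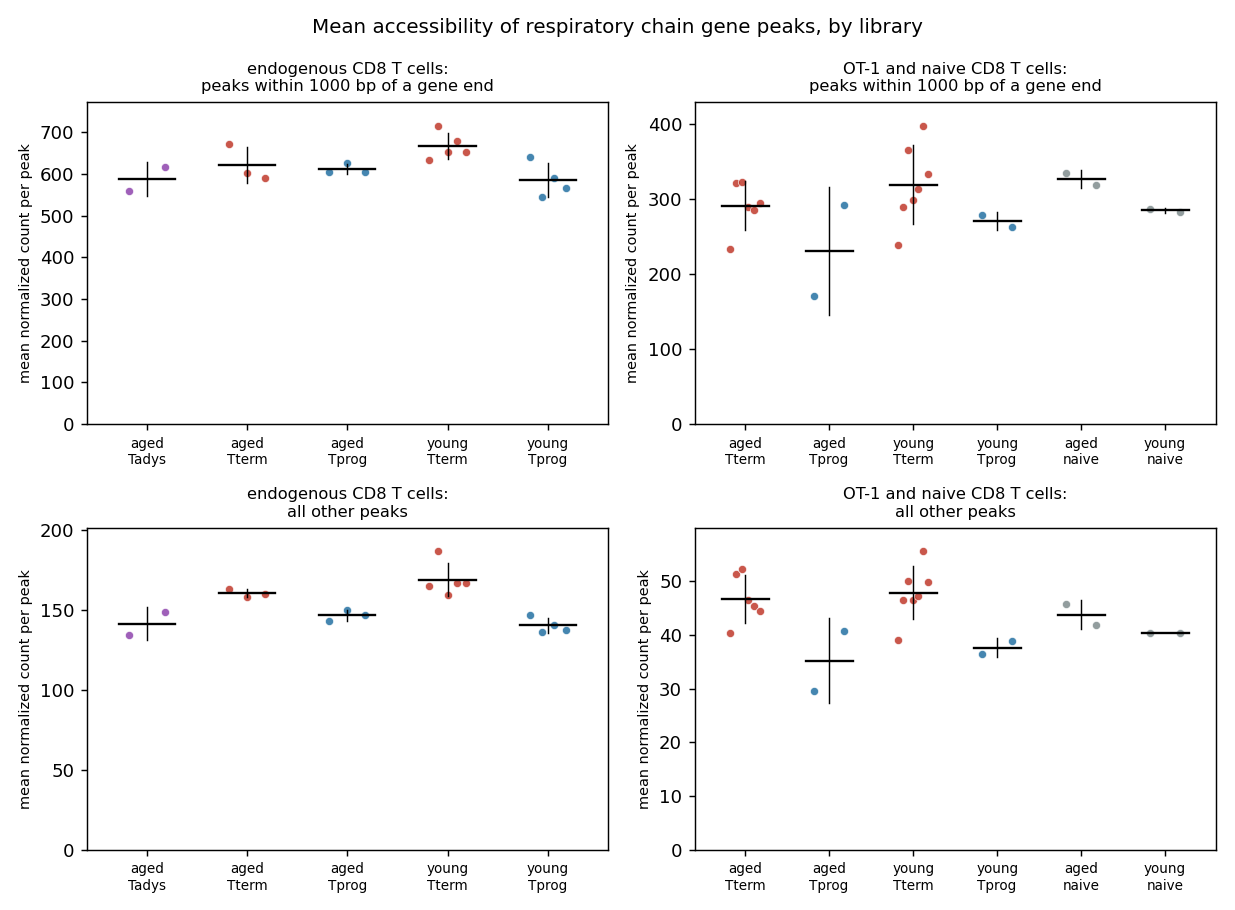
Mean normalized count per member peak (y axis) in every library, for gene-end members (upper row) and other members (lower row) of the endogenous table (left) and the OT-1 and naive table (right); points are libraries, horizontal lines group means and vertical lines SD. The 2 aged OT-1 Tprog libraries lie far apart, at 171 and 292 for gene-end members.

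Few or no members differed by age within a subset. Comparing aged with young endogenous Tterm cells, limma called 0 of 149 members, where 0.00836% of all tested peaks were called; 6 members had an unadjusted p under 0.05, and the count was 0 with edgeR and 0 with DESeq2. In Tprog cells limma called 0, where 0.166% of all were, with 16 under an unadjusted p of 0.05, 0 by edgeR and 2 by DESeq2. For the difference between the subset effects of aged and young mice, limma called 0 members, where 0% of all tested peaks were called, with 8 members under an unadjusted p of 0.05 and 0 and 0 by edgeR and DESeq2. In OT-1 Tterm cells limma called 0 of 167 between aged and young, where 0.266% of all were called, with 6 under an unadjusted p of 0.05 and 0 and 0 by edgeR and DESeq2. Libraries of batches 4 and 5 alone gave 2. The median log2 difference of gene-end members was -0.09 in endogenous Tterm, 0.04 in endogenous Tprog and -0.11 in OT-1 Tterm cells, where all gene-end peaks had -0.06, 0.07 and -0.09.

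In naive cells 1 of 167 members was higher in aged mice, where 4.08% of all tested peaks were, and none was lower, where 1.16% were (14 members had an unadjusted p under 0.05). The member was the Ndufs4 element, with 302 and 276 normalized counts in aged naive libraries, against 39.8 and 85 in young naive libraries. The log2 difference was 2.29 ± 0.44 (SE, limma adjusted p = 0.00204), and the call was lost without the first young naive library (1.75, adjusted p = 0.0912). The count was 2 by edgeR and 2 by DESeq2, but 34 with array weights and 37 with the naive libraries fitted alone.

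Tadys cells, a subset labelled in aged mice alone, were set against both other aged subsets. Against aged Tterm cells 1 member was higher, where 2.06% of all tested peaks were, and 10 were lower, where 4.23% were. Against aged Tprog cells 1 was higher, where 2.61% of all were, and 10 were lower, where 4.04% were. Lower members were 6.71% in each comparison. Among gene-end members 6.33% and 7.59% were lower than in aged Tterm and aged Tprog cells, near the 5.37% and 5.19% of all gene-end peaks. Both comparisons use the same 2 Tadys libraries and are not independent of each other. Without the first Tadys library 6 calls were made against aged Tterm and 4 against aged Tprog, and without the second 11 and 16. Without aged Tterm 1, 2 or 3 the count against aged Tterm was 4, 7 and 4, and without aged Tprog 2 or 3 that against aged Tprog was 4 and 6. With the compared groups alone 2 and 0 calls were made. Scaling by the median of gene-end peaks, which moved the median of all tested peaks to 0.17 in both, gave 7 higher and 4 lower against aged Tterm and 9 and 3 against aged Tprog, and equal library totals gave 2 higher and 5 lower against aged Tterm and 3 higher and 10 lower against aged Tprog, so the surplus of lower calls changed with the scaling.

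The promoter of Sdha, with the 3 NRF1 matches shown above, had 337 and 369 normalized counts in Tadys libraries, against 685, 613 and 594 in aged Tterm and 561, 671 and 639 in aged Tprog libraries (chr13:74349594-74350775). Both Tadys libraries lay below all 6 others, with log2 differences of -0.83 ± 0.17 (SE, limma adjusted p = 0.00411) from aged Tterm and -0.82 ± 0.17 (SE, limma adjusted p = 0.00512) from aged Tprog. The peak also covers the start of Ccdc127. The call against aged Tprog was lost without the first Tadys library (adjusted p = 0.0542), and both calls with the compared groups alone (0.0541 and 0.0708). An intragenic peak of Sdhb, the partner of Sdha in the catalytic dimer, differed by -0.92 ± 0.26 (SE, limma adjusted p = 0.0321) and -0.87 ± 0.26 (SE, limma adjusted p = 0.0397), while the Sdhb promoter had -0.10 ± 0.15 (SE, adjusted p = 0.738) against aged Tterm. The call of the intragenic Sdhb peak against aged Tterm was lost without Tadys 2 (log2 difference -0.62, adjusted p = 0.219), without aged Tterm 1 or 2 (adjusted p = 0.103 and 0.075), under equal library totals (adjusted p = 0.0551) and with the compared groups alone (adjusted p = 0.129). The call of that peak against aged Tprog was not recomputed in these ways.

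A pair of complex I related promoters were lower in both comparisons. That of Ndufa12, an accessory subunit, had 477 and 472 in Tadys libraries, against 863, 582 and 783 in aged Tterm and 730.2, 799 and 875 in aged Tprog libraries (-0.62 ± 0.19 SE, limma adjusted p = 0.0456, and -0.75 ± 0.19 SE, limma adjusted p = 0.0181). That of Ndufaf2, an assembly factor, which also covers the start of Ercc8, had 649 and 632 in Tadys libraries, against 1113, 860.0 and 1075 in aged Tterm and 918, 1078 and 972 in aged Tprog libraries (-0.66 ± 0.17 SE, limma adjusted p = 0.0222, and -0.62 ± 0.17 SE, limma adjusted p = 0.0285). At both, the Tadys libraries lay below all other aged libraries. The Ndufs4 element had 329 and 456 in Tadys libraries (-1.10 ± 0.24 SE, limma adjusted p = 0.00783, against aged Tterm and -0.90 ± 0.24 SE, limma adjusted p = 0.0252, against aged Tprog, the values of which stand above). The Ndufa12 call against aged Tprog was lost without Tadys 1 (adjusted p = 0.0865) or aged Tprog 2 or 3. Without Tadys 1 so were the Ndufs4 calls (0.0992 against aged Tterm and 0.218 against aged Tprog), and that against aged Tprog was also lost without aged Tprog 3 (adjusted p = 0.106). The Ndufaf2 call against aged Tterm was lost without either Tadys library or without aged Tterm 1 or 3 (adjusted p up to 0.0858). The Ndufa12 call against aged Tterm and the Ndufaf2 call against aged Tprog were not recomputed with libraries left out.

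The member that was higher in both comparisons was the gene-end peak of Uqcrq, a small subunit of complex III. It had 1741 and 1671 in Tadys libraries, against 1386, 1275 and 1122 in aged Tterm and 1191, 1229 and 1019 in aged Tprog libraries, with log2 differences of 0.44 ± 0.14 (SE, limma adjusted p = 0.0487) and 0.58 ± 0.14 (SE, limma adjusted p = 0.0123). Both Tadys libraries were above all other aged libraries. The call against aged Tterm was lost when any 1 of the 5 libraries compared was left out (adjusted p up to 0.185), and that against aged Tprog without Tadys 1 or aged Tprog 3 (adjusted p = 0.0888 and 0.0569). Gene-end peaks called lower in 1 of the comparisons were those of Ndufab1, the mitochondrial acyl carrier protein (-0.57 ± 0.17 SE, limma adjusted p = 0.0395), and Cox6c, a complex IV subunit (-0.62 ± 0.19 SE, limma adjusted p = 0.047), against aged Tterm, and of Ndufaf4, a complex I assembly factor (-0.77 ± 0.21 SE, limma adjusted p = 0.0267), and Ndufs4 (-0.78 ± 0.24 SE, limma adjusted p = 0.0474), against aged Tprog. Whether these differ between the 2 comparisons was not tested. Without Tadys 1 the Ndufaf4 difference was -0.37, adjusted p = 0.406, and its call was also lost without aged Tprog 2 or 3. Peaks of low mean that were lower lay in Atp5l (-2.74), Atp5g2 (-0.97), Ndufa10 (-3.58), at Uqcrh (-2.73) and distal to Atp5a1 (-1.40). The first Tadys library decided 3 of these calls. Without it the log2 difference was -0.62, adjusted p = 0.569 at Atp5l, -1.64, adjusted p = 0.395 at Ndufa10 and -0.70, adjusted p = 0.389 at Atp5a1. Tadys calls outside those of lowest adjusted p in each comparison, such as Ndufab1, Cox6c, Atp5g2 and Uqcrh, were not recomputed peak by peak with libraries left out. The shared promoters assigned to Gabpa (with Atp5j) and Mrpl36 (with Ndufs6) differed from aged Tterm by -0.54 (adjusted p = 0.0147) and -0.60 (adjusted p = 0.0144). Summed marker levels were 11061 ± 762 in Tadys, against 13068 ± 711 in aged Tterm and 13096 ± 1014 in aged Tprog libraries for CD4 and regulatory T cells (SD), so that this list moved with the Tadys comparisons. For the sort genes Slamf6 and Havcr2 (Tim-3) they were 3735 ± 470.0 in Tadys, against 5188 ± 115 in aged Tterm and 4357 ± 201 in aged Tprog libraries. The CD8 T cell list had 8872 ± 1549 in Tadys, against 9223 ± 429 and 8995 ± 194 in aged Tterm and Tprog libraries. The other lists in Tadys, aged Tterm and aged Tprog libraries averaged 3507 ± 106, 3336 ± 235 and 3363 ± 382 for myeloid, 3211 ± 250.5, 3330.2 ± 82.8 and 3203 ± 239.8 for B cell, 2078 ± 210.4, 2318 ± 158 and 2016 ± 193 for NK cell and 1710.3 ± 149, 1765 ± 100.2 and 1809.5 ± 84.2 for melanocyte and melanoma genes. The part of these levels in the Tadys results was not tested.

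**Figure D4:**
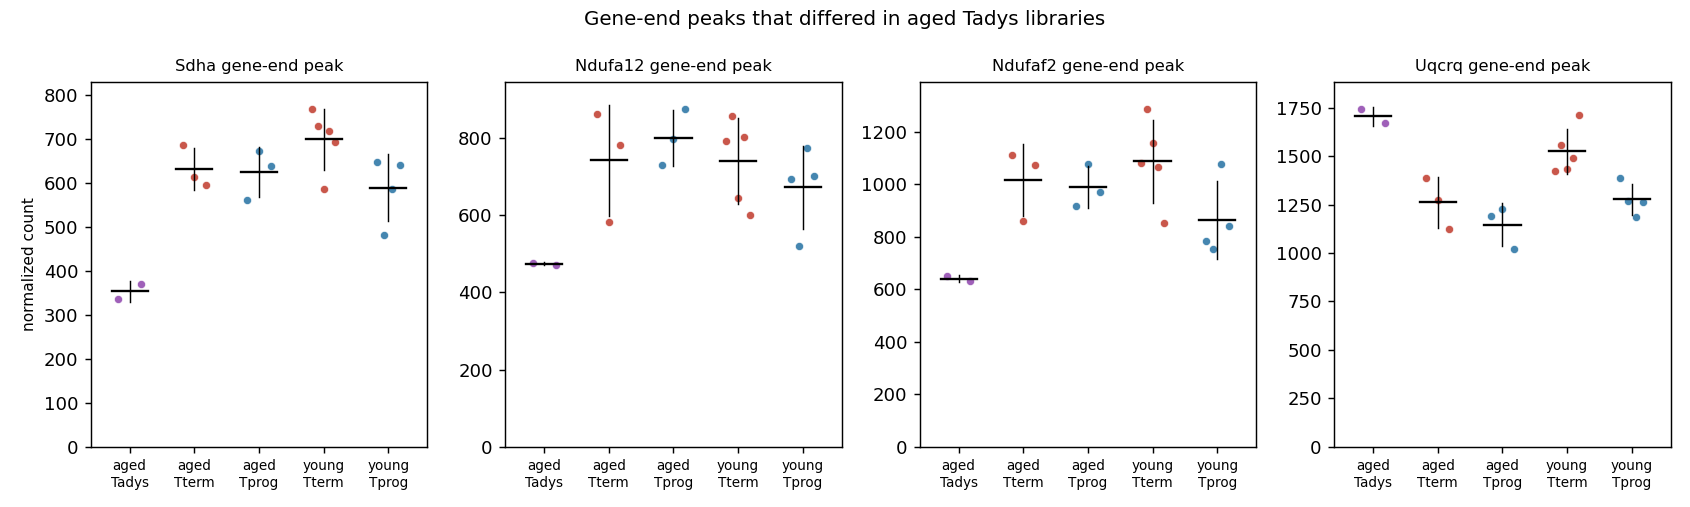
Normalized counts (y axis, from 0) of the gene-end peaks of Sdha, Ndufa12, Ndufaf2 and Uqcrq in each endogenous library; points are libraries, horizontal lines group means and vertical lines SD. The 2 Tadys libraries lie lowest at Sdha, Ndufa12 and Ndufaf2 among aged libraries and highest at Uqcrq.

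Tumour OT-1 cells were set against naive cells of the same age label. In young OT-1 Tterm cells 22 of 167 members were higher, where 22.4% of all tested peaks were, and 18 were lower, where 17.9% were. In young OT-1 Tprog cells 10 of 167 members were higher, where 15% of all tested peaks were, and 14 were lower, where 9.15% were. In aged OT-1 Tterm cells 17 of 167 members were higher, where 21.4% of all tested peaks were, and 41 were lower, where 26.3% were. In aged OT-1 Tprog cells 10 of 167 members were higher, where 10% of all tested peaks were, and 51 were lower, where 18.1% were. Gene-end members had median log2 differences of -0.14 in young Tterm, -0.30 in young Tprog, -0.37 in aged Tterm and -0.90 in aged Tprog cells. All gene-end peaks had 0.01 in young Tterm, -0.10 in young Tprog, -0.34 in aged Tterm and -0.69 in aged Tprog cells. Comparisons of the same age share their 2 naive libraries.

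These counts depend on few libraries. Without the first aged OT-1 Tprog library 7 members were higher and 21 lower in aged Tprog than in naive cells, without the second 89 were called in all, and with the compared groups alone 0 were. Leaving out young naive 1 or 2 left 17 and 14 calls for young Tterm and 11 and 14 for young Tprog cells, and leaving out the second young OT-1 Tprog library left 9. Leaving out aged naive 1 or 2 left 17 and 31 for aged Tterm, and leaving out aged naive 1 left 37 for aged Tprog cells. Scaling by the median of gene-end peaks gave more higher than lower members in all 4 comparisons, with 39 higher and 14 lower for young Tterm, 20 and 10 for young Tprog, 43 and 15 for aged Tterm and 37 and 13 for aged Tprog. It moved the median of all tested peaks to 0.04 for young Tterm, 0.21 for young Tprog, 0.29 for aged Tterm and 0.62 for aged Tprog, where it was -0.06, -0.03, -0.17 and -0.36 without it. Equal library totals gave 19 higher and 43 lower for young Tterm, 12 higher and 31 lower for young Tprog, 26 higher and 49 lower for aged Tterm and 18 higher and 35 lower for aged Tprog. The balance of higher and lower members against naive cells thus changed with the scaling, and the single elements of lowest adjusted p are described instead.

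Several elements were higher in tumour cells than in naive cells. The Ndufs4 element had a lowest of 441, a median of 596 and a highest of 801 in young Tterm and 345 and 371 in young Tprog libraries, against 39.8 and 85 in young naive libraries, with log2 differences of 3.32 ± 0.36 (SE, limma adjusted p = 1.21e-07) and 2.60 ± 0.44 (SE, limma adjusted p = 0.000124). In aged OT-1 cells, where the naive level was higher, the differences were 1.37 ± 0.36 (SE, limma adjusted p = 0.00361) for Tterm and -0.84 ± 0.53 (SE, limma adjusted p = 0.239) for Tprog. The young tumour libraries all lay above the young naive ones. A distal peak of Sdhd, a membrane anchor of complex II (chr9:50590838-50591841), had a lowest of 139, a median of 162 and a highest of 248 in young Tterm and 113 and 119 in young Tprog libraries, against 28.9 and 29.7 in young naive libraries (2.56 ± 0.30 SE, limma adjusted p = 4.15e-07, and 1.95 ± 0.37 SE, limma adjusted p = 0.000411). It also rose in aged Tterm cells (2.23 ± 0.30 SE, limma adjusted p = 3.31e-06), and the nearest other gene is Il18.

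At Ndufab1, a peak over the end of the gene opposite its start (chr7:122086567-122087863) had a lowest of 51, a median of 167 and a highest of 229 in aged Tterm and 189.7 and 105 in aged Tprog libraries, against 16 and 32.7 in aged naive libraries. The log2 differences were 2.78 ± 0.35 (SE, limma adjusted p = 9.34e-07) and 3.57 ± 0.50 (SE, limma adjusted p = 1.64e-05) in aged and 2.22 ± 0.35 (SE, limma adjusted p = 1.55e-05) and 2.01 ± 0.42 (SE, limma adjusted p = 0.00107) in young Tterm and Tprog cells. With the compared groups alone, and so no batch term, the aged Tprog difference was 2.57 (limma adjusted p = 0.114). The Ndufab1 peak lies closest to Ubfd1 among other genes. A distal peak of Uqcrfs1 (chr13:30550210-30550974) differed from aged naive cells by 2.64 ± 0.34 (SE, limma adjusted p = 1.39e-06) in aged Tterm and 3.06 ± 0.49 (SE, limma adjusted p = 7.96e-05) in aged Tprog cells. With the compared groups alone the latter was 2.25 (limma adjusted p = 0.123). A distal peak of Sdhaf2, which attaches the flavin to Sdha, rose by 2.43 ± 0.33 (SE, limma adjusted p = 2.26e-06) and 1.88 ± 0.40 (SE, limma adjusted p = 0.00115) in young and 2.04 ± 0.33 (SE, limma adjusted p = 2.51e-05) and 1.80 ± 0.48 (SE, limma adjusted p = 0.00651) in aged Tterm and Tprog cells. Without the first aged Tprog library, which stood apart, the last of these was 0.94, adjusted p = 0.113. The Cox7a2 element was higher than in young naive cells in young Tprog cells (3.25 ± 0.44 SE, limma adjusted p = 8.43e-06).

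Other peaks were lower in tumour cells. The Ndufa4 peak described above had a lowest of 26.3, a median of 35.2 and a highest of 84.4 in young Tterm and 34.6 and 22.4 in young Tprog libraries, against 102 and 108 in young naive libraries (-1.73 ± 0.29 SE, limma adjusted p = 4.64e-05, and -1.88 ± 0.36 SE, limma adjusted p = 0.000415). The promoter of Ndufa9, an accessory subunit of complex I (chr6:126848244-126849665), had a lowest of 47.5, a median of 77.3 and a highest of 174 in aged Tterm libraries, against 242 and 201 in aged naive libraries (-1.54 ± 0.33 SE, limma adjusted p = 0.000559). The gene-end peak of Uqcrb, a complex III subunit, had a lowest of 129, a median of 209 and a highest of 311 in aged Tterm and 201 and 125 in aged Tprog libraries, against 489 and 467 in aged naive libraries (-1.31 ± 0.25 SE, limma adjusted p = 0.000157, and -2.12 ± 0.36 SE, limma adjusted p = 0.000131). With the compared groups alone the aged Tprog difference at Uqcrb was -1.58 (limma adjusted p = 0.176). The Sdhaf4 and Cox7c promoters were lower than in aged naive cells, with log2 differences of -1.17 ± 0.26 (SE, limma adjusted p = 0.000853) and -1.07 ± 0.23 (SE, limma adjusted p = 0.000631) in aged Tterm cells. The Ndufa10 and Cox5a elements were lower in young Tprog than in young naive cells, with log2 differences of -1.47 ± 0.26 (SE, limma adjusted p = 0.000231) and -1.28 ± 0.31 (SE, limma adjusted p = 0.00398), and had -0.43 ± 0.22 (SE, limma adjusted p = 0.115) and 0.58 ± 0.26 (SE, limma adjusted p = 0.0726) in young Tterm cells. The largest fitted values were at peaks of low mean, at Ndufs5 (4.21) and Ndufa13 (3.39) in aged Tprog cells and at a distal Ndufaf4 peak (-2.71) in aged Tterm cells, and depend on the pseudocount of 1. Other named members with log2 differences from young naive cells (± SE) were Atp5h (2.02 ± 0.33), Cox7a2l (-1.80 ± 0.35), Sdha (-1.18 ± 0.30), Ndufaf2 (-1.68 ± 0.43), Ndufb6 (-1.23 ± 0.32) and Sdhaf4 (-0.94 ± 0.26) in young Tterm cells and Atp5h (1.98 ± 0.40), Uqcrfs1 (-2.63 ± 0.62), Ndufaf2 (-1.43 ± 0.38) and Atp5l (-1.45 ± 0.44) in young Tprog cells. The Sdha value is of an intragenic peak and not of the promoter. The Ndufaf2 values in Tterm and Tprog cells are of different intragenic peaks. The Uqcrfs1 value is of another distal peak (chr13:30548977-30549198) than that above. From aged naive cells the further named members were Ndufa13 (3.38 ± 0.59) and Ndufaf6 (-1.77 ± 0.34) in aged Tterm cells and Ndufaf6 (2.31 ± 0.50), Ndufa4 (-2.96 ± 0.43), Cox7c (-2.19 ± 0.34), Ndufa10 (-2.03 ± 0.32), Sdhaf4 (-2.43 ± 0.38) and Sdhaf3 (-2.31 ± 0.42) in aged Tprog cells. The Ndufaf6 values in Tterm and Tprog cells are of different peaks, so they are not opposite changes of the same peak. Without young naive 2 the young Tterm calls of Sdha, Ndufaf2, Ndufb6 and Sdhaf4 were lost (adjusted p up to 0.112). Without the second young OT-1 Tprog library the young Tprog calls of Cox5a, Ndufaf2, Atp5l and Uqcrfs1 were lost (adjusted p up to 0.19), and without the first aged OT-1 Tprog library the Ndufa13 call was (2.45, adjusted p = 0.0639).

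**Figure D5:**
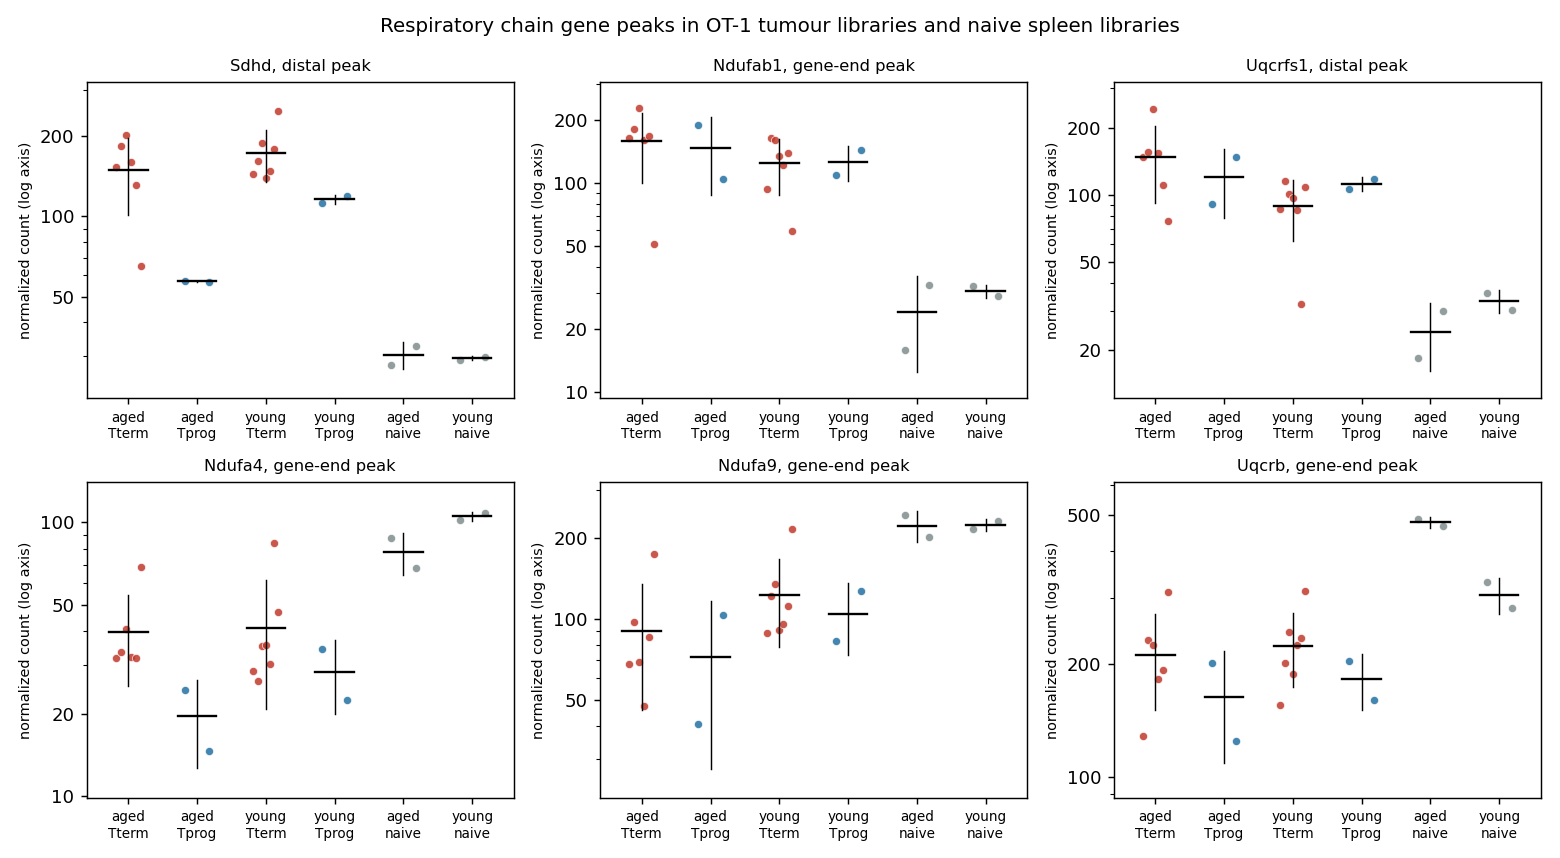
Normalized counts (y axis, log scale) of 6 member peaks in each OT-1 and naive library: distal peaks of Sdhd and Uqcrfs1 and gene-end peaks of Ndufab1, Ndufa4, Ndufa9 and Uqcrb; points are libraries, horizontal lines group means and vertical lines SD. The Sdhd, Ndufab1 and Uqcrfs1 peaks are higher in aged and young Tterm cells than in naive cells of the same age, and the Ndufa4, Ndufa9 and Uqcrb peaks are lower in aged Tterm than in aged naive cells.

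Related genes were counted in the same way. In young endogenous Tterm against Tprog cells, where 14.3% of all tested peaks were higher and 11.3% lower, peaks higher and lower numbered 17 and 10 of 68 for regulators of mitochondrial transcription and biogenesis, 10 and 0 of 65 for respiratory chain and assembly genes outside the prefixes, 19 and 10 of 133 for the mitochondrial ribosome, 9 and 5 of 39 for the tricarboxylic acid cycle, 13 and 4 of 47 for glycolysis and 2 and 0 of 12 for mitochondrial fusion and fission. Gene-end medians were 0.29 for the regulators, 0.18 for the mitochondrial ribosome, 0.25 for the tricarboxylic acid cycle and 0.26 for glycolysis, beside 0.21 for the members. The median of all gene-end peaks was 0.18. In aged endogenous cells, where 6.75% of all were higher and 5.37% lower, they numbered 7 and 1 of 68 for regulators of mitochondrial transcription and biogenesis, 1 and 1 of 65 for respiratory chain and assembly genes outside the prefixes, 4 and 6 of 133 for the mitochondrial ribosome, 2 and 2 of 39 for the tricarboxylic acid cycle, 4 and 1 of 47 for glycolysis and 2 and 0 of 12 for mitochondrial fusion and fission.

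Among regulators, Nrf1, which encodes the factor of the NRF1 motif, had an intragenic peak (chr6:30116507-30117353) that was higher in Tterm than in Tprog cells by 2.04 ± 0.28 (SE, adjusted p = 2.3e-06) in young and 2.42 ± 0.34 (SE, adjusted p = 1.24e-05) in aged mice, and its promoter differed by 0.10 ± 0.12 (SE, adjusted p = 0.628) in young mice. The promoter of Yy1 was higher in young Tterm cells by 0.55 ± 0.11 (SE, adjusted p = 0.000565) and that of Tfam, a transcription factor of mitochondrial DNA, by 0.36 ± 0.13 (SE, adjusted p = 0.0346). A distal peak of Hif1a was lower, with a log2 difference of -1.10 ± 0.22 (SE, adjusted p = 0.000328). The promoters of Lrpprc, which stabilizes mitochondrial transcripts, and Cox17, a copper chaperone of complex IV, were higher in young Tterm cells by 0.56 ± 0.11 (SE, adjusted p = 0.000508) and 0.56 ± 0.11 (SE, adjusted p = 0.000422), and that of Cycs (cytochrome c) by 0.31 ± 0.11 (SE, adjusted p = 0.034). These values were chosen from the lists after they were seen.

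Against naive cells the same lists were counted. In young OT-1 Tterm cells, where 22.4% of all tested peaks were higher and 17.9% lower, peaks higher and lower numbered 17 and 9 of 81 for regulators of mitochondrial transcription and biogenesis, 12 and 19 of 72 for respiratory chain and assembly genes outside the prefixes, 24 and 12 of 160 for the mitochondrial ribosome, 12 and 6 of 42 for the tricarboxylic acid cycle, 21 and 4 of 54 for glycolysis and 2 and 0 of 15 for mitochondrial fusion and fission. In Tadys against aged Tterm cells, where 2.06% of all were higher and 4.23% lower, they numbered 0 and 2 of 68 for regulators of mitochondrial transcription and biogenesis, 1 and 6 of 65 for respiratory chain and assembly genes outside the prefixes, 0 and 11 of 133 for the mitochondrial ribosome, 1 and 0 of 39 for the tricarboxylic acid cycle, 0 and 2 of 47 for glycolysis and 0 and 2 of 12 for mitochondrial fusion and fission. In aged OT-1 Tterm against aged OT-1 Tprog cells, where 11.3% of all were higher and 3.39% lower, they numbered 6 and 3 of 81 for regulators of mitochondrial transcription and biogenesis, 4 and 3 of 72 for respiratory chain and assembly genes outside the prefixes, 23 and 1 of 160 for the mitochondrial ribosome, 5 and 1 of 42 for the tricarboxylic acid cycle, 11 and 1 of 54 for glycolysis and 2 and 0 of 15 for mitochondrial fusion and fission. The last count rests on the same 2 aged OT-1 Tprog libraries as that of the members, and was not recomputed without the first of them.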

How the data were processed

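ATAC-seq reads were 50 bp pairs from pools of sorted cells. The authors deposited 2 tables of normalized signal per peak, and the submitters' processing notes name Bowtie2 2.2.9, Picard 2.8.0, SAMtools 1.3.1, MACS2 2.1.1, DESeq2 1.28.1 and mm10. The step each tool served is not stated there. The deposited signal is read counts per peak divided by a factor for each library: 100% of values were whole reads within 0.02 after scaling back. Peak coordinates are as the tables give them.

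Values were tested as log2(value + 1), so a fold change understates the difference of low peaks, with limma 3.58.1 in R 4.3.3. One fit took all libraries of a table with an intensity trend, peaks of mean 10 or more, Benjamini-Hochberg adjustment over all tested peaks and a threshold of 0.05. The OT-1 table had a term for batch 6. A peak over 2 gene bodies went to the gene whose end was nearest its centre. Named were up to 6 called members in each direction by lowest adjusted p, a list of core subunits and isoforms at their gene ends, and the 3 highest and 3 lowest means. One member gene is counted but not reported here. Alternatives were edgeR 4.0.16 and DESeq2 1.42.0 on recovered reads, other scalings, filters, pseudocounts and weights, a replicate block, compared groups alone and each library left out. The scripts were tested on simulated reads, where the fit of the OT-1 table gave somewhat more false calls than the nominal rate. False calls were counted over all tested peaks and not by peak level. Tables were handled with Python 3.11.15, pandas 2.3.3, numpy 2.4.6 and matplotlib 3.10.9. Members and lists were chosen with earlier results of these data known. The labels do not say that replicates were separate animals, so p-values measure the spread between these samples. The 2 tables were normalized separately and were not compared in level.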

Additional observations from a re-analysis of the deposited data

Results flagged for a closer look

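In 24 group means and member peaks examined for a library far from the others of its group, 2 were found. Chance alone marks about 1 in 20 where groups are independent and not picked. The Cox7a2 element was picked by its calls, so the 2 flags cannot be set against that rate. At the Cox7a2 element the second young endogenous Tprog library was the lowest, at 160.0 normalized counts, with the others between 303 and 331. Over the members away from gene ends, the mean of the second young endogenous Tterm library was the highest of its group, at 186.5 normalized counts, with the others between 159.6 and 166.9.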

How the results depend on the processing

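Over 91 calls of member peaks named by the rule, each counted once per comparison, 1409 recomputed values kept direction and call, 159 kept direction but lost the call, and 0 changed direction. Counts of called members moved more. For young endogenous Tterm against Tprog (23 calls), equal library totals and an equal gene-end median each gave 11. For Tadys against aged Tterm (11), equal totals gave 7, array weights 2, the replicate block 5 and the compared groups alone 2. For Tadys against aged Tprog (11), edgeR gave 6, and array weights and the compared groups alone 0. For aged against young Tprog (0), DESeq2 gave 2 and array weights 1. For young OT-1 subsets (5), array weights gave 13. For aged OT-1 subsets (17), no filter on low values and equal totals gave 10 each, an equal gene-end median and edgeR 8 each, array weights 2, the replicate block 6, the compared groups alone 0 and no batch term 9. For aged against young OT-1 Tterm (0), batches 4 and 5 alone gave 2. For aged against young naive (1), a pseudocount of 5, a mean of 30 or more, edgeR, DESeq2 and the replicate block each gave 2, array weights 34 and the compared groups alone 37. Against naive cells, equal totals gave 62 for young Tterm (40) and 43 for young Tprog (24). Array weights gave 77 for young Tterm, 65 for young Tprog, 94 for aged Tterm (58) and 37 for aged Tprog (61), and the compared groups alone 68 for young Tprog and 0 for aged Tprog. The cause of these shifts was not tested.

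With each library left out in turn, the count lay between 12 and 26 for young endogenous subsets, 2 and 7 for aged endogenous subsets, 4 and 11 for Tadys against aged Tterm, 4 and 16 for Tadys against aged Tprog, 3 and 6 for young OT-1 subsets, and 8 and 81 for aged OT-1 subsets. It lay between 0 and 1 for naive age, 14 and 43 for young Tterm, 9 and 23 for young Tprog, 17 and 61 for aged Tterm and 28 and 89 for aged Tprog against naive cells. It was 0 throughout for age within endogenous Tterm, endogenous Tprog and OT-1 Tterm cells and for the age by subset term. Where a group kept 1 library, it was assumed to vary like the other groups. Same-numbered libraries of different groups had correlations of their deviations between -0.267 and 0.285 in the endogenous and -0.149 and 0.279 in the other table. Differently numbered libraries had correlations between -0.337 and 0.325 and between -0.266 and 0.277. Whether equal numbers mark a shared animal or day is not stated, and these ranges cannot decide it.

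Groups of 2 libraries limit the Tadys, OT-1 Tprog and naive comparisons, and an adjusted p there moves with any 1 library. Intervals and values cover the spread between libraries, not between known animals.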
